A study of Homo sapiens with 18 samples.

Results

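2-Deoxyglucose (2DG) was compared with its solvent DMSO in T98G cells, an established human glioblastoma line. The members were 6 of the 18 libraries of the series, 3 labelled 2DG and 3 labelled DMSO, which were chosen by their labels alone, and every gene of the table entered. All cells were harvested after 2 h, with 2DG at 10 mM by the sample labels, although the results text of the study names a higher dose. The other 12 libraries held 3 each of gnetin H (GH, a plant stilbene oligomer that lowers glycolysis) at 8 µM, phenformin (a biguanide that blocks mitochondrial complex I) at 100 µM, and the combinations of phenformin with 2DG or with GH. They shared the estimate of the spread and gave 2 further comparisons below. Each group has biological replicates with the letters A to C. Beyond that word nothing says that they came from separate cultures, so the p-values measure the spread between these libraries.

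2DG enters cells through glucose transporters and is phosphorylated by hexokinase, after which it accumulates and slows glycolysis. It also resembles mannose and is built into the lipid-linked sugar chain that is transferred to new proteins in the endoplasmic reticulum (ER), so that proteins there can fold poorly. Sensors in the ER membrane then start the unfolded protein response. One of them, like several related kinases, phosphorylates the initiation factor eIF2, which slows translation but favours the factor ATF4 and its targets, the integrated stress response. The phosphorylated sugar is in addition a signal for MondoA and MLX, a pair of transcription factors whose best known targets are the alpha-arrestin genes TXNIP and ARRDC4.

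Levels are given as FPKM, fragments scaled to exon length and to the mapped fragments of the library. Of the 55128 genes of the table, 12108 reached 0.5 FPKM in at least 3 of the 18 libraries and were tested with limma on log2(FPKM + 0.1), a scale that understates the change of low genes. A gene rose or fell where its p, adjusted by Benjamini-Hochberg over all genes tested, was under 0.05. It was called higher or lower where it also changed at least 2-fold with a Bonferroni p of at most 0.05 and reached a mean of 1 FPKM in the higher group. Standard errors (SE) are on the log2 scale. With 2DG 2992 genes rose (24.7%) and 3670 fell (30.3%), with a median log2 fold change of -0.045 over all of them. Called higher were 32 genes (0.264%) and called lower 20 (0.165%), and in all 52 the 3 libraries of one group lay outside the range of the other. Over all genes tested, 26.1% had every 2DG library above every DMSO library and 34% had every one below. The 52 were picked by their change in these same libraries, so their lack of overlap is no added support. The counts depended on single libraries. Without DMSO replicate A, DMSO replicate B, 2DG replicate B or 2DG replicate C, 1232, 1662, 1708 and 1858 genes rose, and without DMSO replicate A, 2DG replicate A, B or C, 13, 31, 13 and 12 were called lower. With only these 6 libraries in the model, 19 genes were called higher and 2 lower, and without DMSO replicate C and GH plus phenformin replicate A, which stood apart from their groups, 142 and 21. Genes that rose made up 44.9% of those that changed, but 56.9% after a median-of-ratios scaling. All comparisons between single genes have the same limit, since an exact permutation test of 3 libraries against 3 cannot go below 0.1, the two-sided p of CHAC1, DDIT3, HERPUD1 and PPP1R10 alike.

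GC-rich genes stood higher, relative to GC-poor ones, in some libraries than in others. For this the log2 level of each gene was taken as its deviation from its mean over the 18 libraries. The slope of these deviations over 10 points of GC content was -0.30, -0.23 and 0.046 in DMSO replicates A, B and C. In the 2DG replicates it was 0.13, 0.29 and 0.27, so that it moved with the treatment while DMSO replicate C stood apart from its group. The median log2 fold change was -0.23 for genes under 40% GC, and 0.82 at 60% or more. After the trend of each library on GC content and length was removed, 2877 genes rose (23.8%) and 2384 fell (19.7%), with a median of 0.0088 and 54.7% of the changes upward. Of the genes as first counted, 1523 rose and 1615 fell both ways, and 213 passed both times with opposite signs. The counts of the gene lists below are to be read beside the shares of all genes tested, before and after the correction. All 32 genes called higher rose and all 20 called lower fell after the correction too, by the adjusted p alone. By the full call rule 24 of the 32 and 9 of the 20 were called again, among 36 called higher and 15 lower. Values after this correction are therefore given beside the log2 fold changes of single genes for 2DG against DMSO. The correction also takes out any true difference between GC-rich and GC-poor genes. The part of the GC trend in the results was not tested beyond this. The 6 libraries held 19532872 to 20581884 mapped fragments, and replicates differed by 1.32 to 21.3 times the sampling variance. VIM and CD44 were high, at 808 to 974 FPKM and 310.0 to 344 FPKM, and FN1 stood at 52.3 to 66.7 FPKM. NES (0 to 0.046 FPKM) and CHI3L1 (0.043 to 0.18 FPKM), listed with these 3 as markers of the line, were near 0. The glial markers GFAP and OLIG2 and the progenitor marker SOX2 were at or near 0 too. Of 17 markers of other cell types 6 were at 0 in all 6 libraries and 2 reached the level for testing. One of them, the keratin gene KRT18, stood at 11.7 to 18.1 FPKM in DMSO and 19.5 to 23.2 in 2DG (log2 fold change 0.62, 0.14 after the correction). The other 16 summed to 0.845 to 1.11 FPKM in DMSO and 0.775 to 0.931 in 2DG.

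HERPUD1 and HSPA5, targets of the unfolded protein response, were both called higher. HERPUD1, whose product helps to remove misfolded proteins from the ER membrane, lies at chr16:56932048-56944863, plus strand (GRCh38). Its level was 10.1, 10.5 and 9.69 FPKM in the DMSO libraries and 42.1, 41.1 and 38.8 in the 2DG libraries. The groups lay 4.04-fold apart with little spread within either, a log2 fold change of 2.00 (SE 0.049, adjusted p = 1.4e-12 by limma, 2.13 after the correction). AC012181.2, a transcript of 1 exon within HERPUD1 on the same strand, rose by 3.95 on the log2 scale (4.21 after the correction), from 5, 3 and 3 fragments to 79, 65 and 83. Fragments of the one can be counted for the other, and the part of this in its rise was not tested. Against GH, described below, the log2 differences of 2DG were 2.01 for AC012181.2 and 0.13 for HERPUD1. HSPA5, the main HSP70 chaperone of the ER, stood at 178, 178 and 166 FPKM in DMSO and 422, 398 and 402 in 2DG, which again did not overlap, with a log2 fold change of 1.23 (SE 0.051, adjusted p = 4.7e-10 by limma, 1.35 after the correction).

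The promoters of HERPUD1 and HSPA5 hold the known ER stress elements, shown here because both genes carry the response. The sequences are those of RefSeq on GRCh38.p14, 5′ to 3′ on the strand of the gene, upstream of the RefSeq start, which can lie within the span the deposited table gives a gene. Capitals mark in HERPUD1 (chr16:56931941-56932060, plus strand) the element TGATGCAA, read here on the other strand as TTGCATCA, and downstream of it the ER stress element II, ATTGG and CCACG with 1 base between them. In HSPA5 (chr9:125241366-125241434, minus strand) they mark the ER stress element, CCAAT and CCACG 9 bases apart. CHAC1, described below, carries TGATGCAA as well (chr15:40953237-40953294, plus strand), the core of the sites that ATF4 and its partners of the C/EBP family bind.
HERPUD1: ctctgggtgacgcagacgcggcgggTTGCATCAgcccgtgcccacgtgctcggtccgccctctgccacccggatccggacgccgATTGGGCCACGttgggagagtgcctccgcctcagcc
HSPA5: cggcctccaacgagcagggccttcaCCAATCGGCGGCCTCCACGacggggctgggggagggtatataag
CHAC1: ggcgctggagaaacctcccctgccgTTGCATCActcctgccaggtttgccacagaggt
Promoters were searched over 300 bases, from 250 before the start of a gene to 50 after it, on both strands, and 22 of the 32 genes called higher and 10 of the 20 called lower matched the RefSeq table by symbol. The ER stress element was found in 0.0806% of all 27305 promoters and in 1 of the 22. Its form II was in 0.0549% of all and in 1 of the 22, and TGATGCAA in 0.923% of all and in 2 of the 22. The longer TGATGCAAT was in 0.264% of all and in none of the 22. None of these was in any of the 10. Form II and TGATGCAA were added to the search after the sequences had been seen, and a match describes the letters only.

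Of 29 ER chaperones and oxidoreductases, 13 rose, 7 fell and 9 did not pass the test (16 and 2 rose and fell after the correction). Their median log2 fold change was 0.083 (0.12 after the correction). DNAJB9, a co-chaperone that binds the sensor IRE1, rose from 10.9, 9.26 and 7.67 FPKM to 18.05, 16.3 and 16.2, a log2 fold change of 0.86 (adjusted p = 4.3e-05, limma, 1.15 after the correction). The calcium-binding chaperone CALR rose by 0.58 and the large ER chaperone HYOU1 by 0.63 on the log2 scale, with 0.42 and 0.34 after the correction. PDIA4, a disulfide isomerase, rose by 0.44 and CRELD2, an ER stress-inducible gene, by 0.98 (0.41 and 0.33 after the correction). XBP1, the mRNA that the sensor IRE1 splices, rose from 31.9, 31.8 and 30.9 to 53.2, 50.8 and 51.7 FPKM, by 0.72 (adjusted p = 3.8e-09, limma, 0.78 after the correction). These gene-level values do not tell its spliced and unspliced forms apart.

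Among the sensors and factors listed for the unfolded protein response, XBP1 alone rose after the correction. ATF4, ATF3 and DDIT3, which are given below and also rose, were counted with the integrated stress response. Of 9 sensors and factors of the unfolded protein response 4 rose, 4 fell and 1 did not pass the test (1 and 3 rose and fell after the correction), and the sensor gene ATF6 had a log2 fold change of -0.18 (0.029 after the correction, which did not pass). Of 23 genes of ER-associated degradation 5 rose, 8 fell and 10 did not pass the test (9 and 8 rose and fell after the correction), with a median of -0.018 (0.026 after the correction). After HERPUD1, the genes of that list with the smallest p had fallen. The mannosidase-like gene EDEM3 fell from 8.93, 9.13 and 7.88 to 5.76, 5.54 and 5.61 FPKM (log2 fold change -0.61, adjusted p = 2.8e-04 by limma, -0.37 after the correction), and the lectin gene ERLEC1 fell by 0.40 on the log2 scale (-0.15 after the correction). HERPUD2, the relative of HERPUD1, had a log2 fold change of -0.52 (adjusted p = 7.3e-05, limma, -0.41 after the correction), the opposite direction to HERPUD1.

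A target of the integrated stress response had the largest log2 fold change of all genes tested. CHAC1 (chr15:40952962-40956519, plus strand), an enzyme that breaks down glutathione, was all but silent in DMSO at 0.118, 0.0995 and 0.0484 FPKM and stood at 4.498, 7.07 and 6.39 in 2DG. These values rest on 5, 4 and 2 fragments in DMSO and 181, 287 and 270 in 2DG, 11 against 738 in all. Per mapped fragment that is 67.5-fold (exact 95% interval 37.5 to 136, counting error only), and the model gave a log2 fold change of 5.01 (SE 0.26, adjusted p = 5.6e-09 by limma, 4.33 after the correction). DDIT3 (chr12:57516588-57520517, minus strand), the transcription factor CHOP, rose from 16.3, 16.8 and 19.9 FPKM to 97.6, 102 and 97.9, a log2 fold change of 2.49 (SE 0.072, adjusted p = 8.2e-12 by limma, 2.49 after the correction). Each 2DG library lay near 100 FPKM and each DMSO library below 20, and the correction left the value as it was.

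ATF4, which acts upstream of both, rose as an mRNA from 88.8, 86.02 and 94.8 to 176, 177 and 178 FPKM, by 0.98 (adjusted p = 1.7e-09, limma, 0.84 after the correction). Of 15 sensors and factors of the response 9 rose, 4 fell and 2 did not pass the test (8 and 1 rose and fell after the correction), with a median of 0.23 (0.12 after the correction). ATF3, a transcription factor that ATF4 induces, rose by 0.96 on the log2 scale and 0.99 after the correction. PPP1R15A (GADD34), which directs the removal of phosphate from eIF2, was called higher at 23.1, 25.5 and 29.8 FPKM in DMSO and 57.4, 68.2 and 64.8 in 2DG, a log2 fold change of 1.28 (0.77 after the correction). TRIB3, a pseudokinase target of ATF4 and DDIT3, rose by 0.79, but after the correction its 0.12 did not pass (adjusted p = 0.49 by limma). For CEBPB the values were 0.54 and, after the correction, -0.44 (adjusted p = 0.16), so its direction was not stable.

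Targets of ATF4 in amino acid supply did not move as one. Of 21 such genes 12 rose, 3 fell and 6 did not pass the test (12 and 2 rose and fell after the correction), with a median of 0.34 (0.10 after the correction). ASNS, the asparagine synthetase, rose from 6.35, 6.39 and 6.35 to 8.37, 8.07 and 7.82 FPKM (log2 fold change 0.34, adjusted p = 3.2e-04 by limma, 0.56 after the correction), and SHMT2, a mitochondrial enzyme of serine use, by 0.79 (0.48 after the correction). SLC3A2 and SLC7A11 form a cystine transporter together. SLC3A2 rose by 0.68 (0.24 after the correction), whereas SLC7A11 fell from 52.99, 54.8 and 47.3 to 34.1, 31.3 and 32.2 FPKM, a log2 fold change of -0.66 (adjusted p = 8.1e-05, limma, -0.46 after the correction). The counts of the cytosolic tRNA synthetases, many of them also ATF4 targets, depended on the correction. Of 22 tested, 8 rose, 7 fell and 7 did not pass the test (13 and 0 rose and fell after the correction).

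DDIT4 and SESN2, inhibitors of growth signalling, were called higher too. DDIT4 (REDD1), which holds back the growth kinase complex mTORC1, went from 20.9, 23.7 and 27.04 FPKM to 80.99, 93.8 and 91.4, a log2 fold change of 1.89 (SE 0.11, adjusted p = 2.4e-08 by limma, 1.44 after the correction). SESN2, a leucine sensor upstream of mTORC1, went from 1.28, 1.36 and 1.701 to 4.93, 5.37 and 5.53 FPKM (log2 fold change 1.80, adjusted p = 3.9e-06 by limma, 1.23 after the correction), and the groups of both genes lay far apart. SIK1, a kinase of the AMPK family, was called higher, with a log2 fold change of 1.41 (0.99 after the correction), and FLCN, which controls nutrient signalling at the lysosome, rose by 0.80 (0.48 after the correction). Among 26 genes of mTORC1, AMPK and these inhibitors 14 rose, 4 fell and 8 did not pass the test (14 and 5 rose and fell after the correction). TSC1, a subunit of the complex that restrains mTORC1, had a log2 fold change of -0.33 (-0.28 after the correction).

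**Figure D1:**
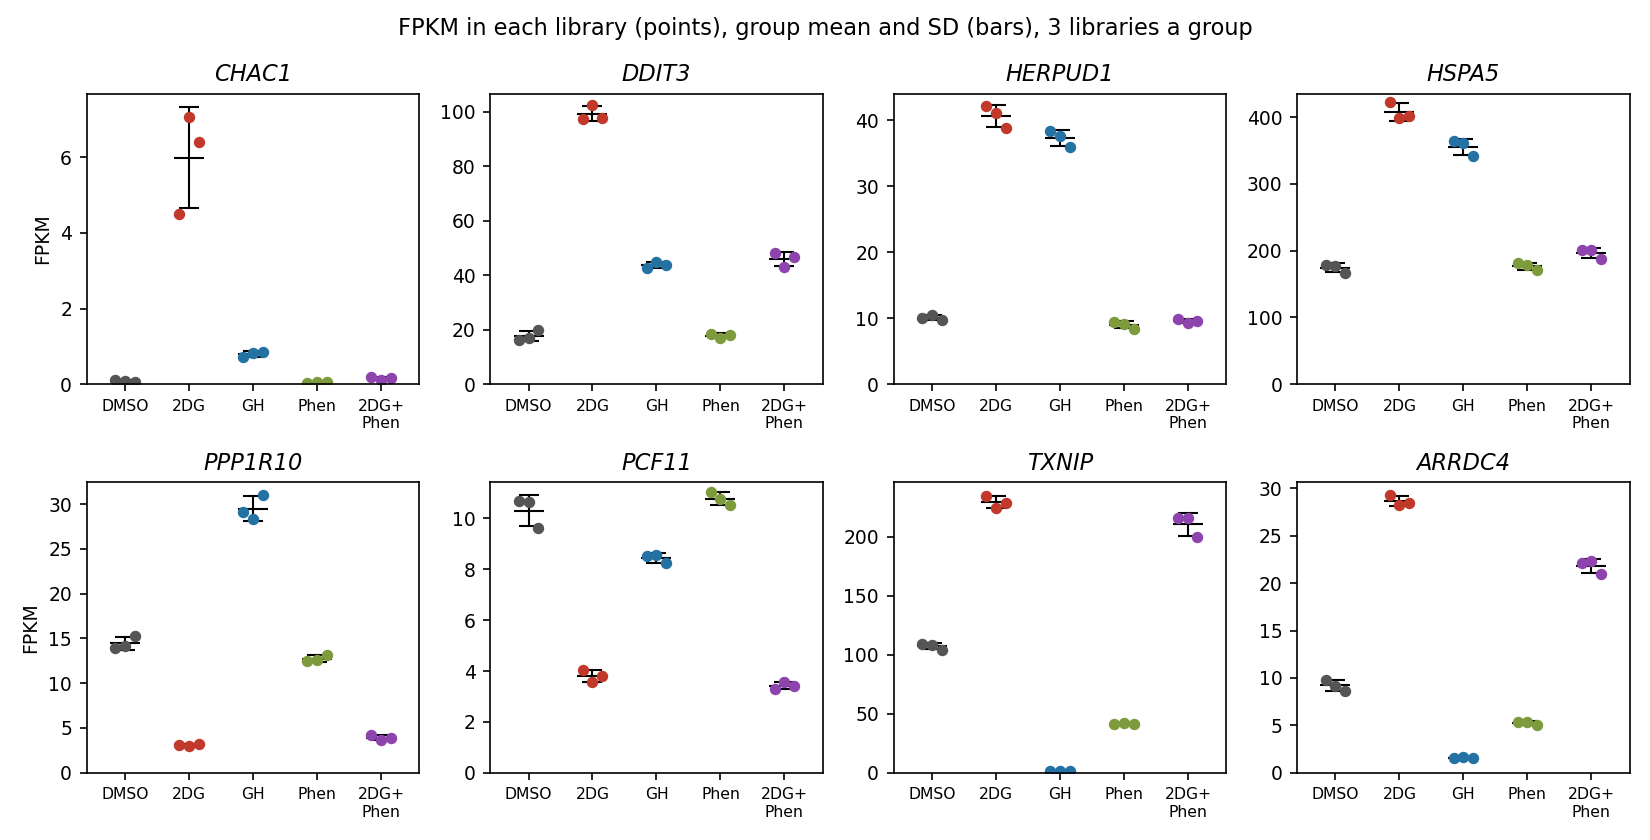
FPKM of 8 genes (vertical axes, linear from 0) in each library of DMSO, 2DG, GH, phenformin (Phen) and 2DG plus phenformin, as points with the mean and SD of 3 libraries. CHAC1, DDIT3, HERPUD1 and HSPA5 are highest in 2DG alone, PPP1R10 and PCF11 are low with 2DG with or without phenformin, and TXNIP and ARRDC4 are high with 2DG and lowest in GH.

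Both best known targets of MondoA were called higher. TXNIP, an arrestin that limits glucose uptake, was already abundant at 109, 108 and 104 FPKM in DMSO and reached 235, 225 and 229 in 2DG, a log2 fold change of 1.10 (SE 0.046, adjusted p = 4.7e-10 by limma, 1.29 after the correction). ARRDC4, its close relative, rose from 9.83, 9.19 and 8.59 to 29.3, 28.3 and 28.5 FPKM, by 1.63 (SE 0.067, adjusted p = 4.7e-10 by limma, 1.81 after the correction). In both genes every 2DG library lay far above every DMSO library. Of 7 genes of the alpha-arrestins and of MondoA and MLX, 6 rose, 0 fell and 1 did not pass the test (4 and 1 rose and fell after the correction). The list was chosen with the rise of TXNIP and ARRDC4 known, so its count is no independent evidence of direction. ARRDC3 rose by 0.28 on the log2 scale (0.54 after the correction), and MLXIP, which encodes MondoA, by 0.44, which after the correction was -0.040 (adjusted p = 0.72 by limma).

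The promoter of TXNIP holds the known carbohydrate response element, 2 copies of CACGNG with 5 bases between them, and is shown for that reason. The stretch is chr1:145996626-145996692, minus strand, from RefSeq on GRCh38.p14 and written 5′ to 3′ on the strand of the gene, with the element in capitals.
TXNIP: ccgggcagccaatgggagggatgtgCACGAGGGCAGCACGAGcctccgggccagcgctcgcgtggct
This spaced pair was in 0.0732% of all promoters and, among the 22 genes called higher that matched, in TXNIP alone. It was added after the sequence had been seen. The plain E-box, CACGTG, was in 7.43% of all promoters, 10.6% of those of genes tested and 6 of the 22, namely ARRDC4, HERPUD1, KLF4, KLF11, OTUD1 and PPARGC1A, against 0 of the 10 called lower. The cAMP response element TGACGTCA was in 1.98% of all and in 1 of the 22, PPP1R15A.

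Glucose transporters moved in both directions. SLC16A6, a member of the monocarboxylate transporter family, rose from 4.52, 5.09 and 4.61 FPKM to 15.5, 15.2 and 14.9, a log2 fold change of 1.66 (SE 0.058, adjusted p = 7.3e-11 by limma, 1.91 after the correction). SLC2A12 (GLUT12) was called lower, at 1.69, 1.94 and 1.604 FPKM in DMSO and 0.813, 0.635 and 0.676 in 2DG (log2 fold change -1.19, adjusted p = 9.7e-06 by limma, -0.95 after the correction). SLC2A10 (GLUT10) had a log2 fold change of -0.51 (-0.48 after the correction). SLC2A3 (GLUT3) rose from 5.17, 5.36 and 5.16 to 7.75, 8.07 and 7.64 FPKM (log2 fold change 0.57, adjusted p = 3.3e-07 by limma, 0.71 after the correction), and the main transporter SLC2A1 by 0.50, or 0.37 after the correction. Of 11 transporters tested, 6 rose, 4 fell and 1 did not pass the test (6 and 3 rose and fell after the correction).

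More genes of glycolysis, the pathway that 2DG slows, rose than fell. Of 24 genes 14 rose, 4 fell and 6 did not pass the test (13 and 1 rose and fell after the correction), and their median was 0.42 (0.17 after the correction). HK2, the inducible hexokinase that phosphorylates 2DG itself, went from 28.5, 29.3 and 31.3 to 44.3, 48.05 and 46.7 FPKM, a log2 fold change of 0.64 (SE 0.046, adjusted p = 2.4e-07 by limma, 0.64 after the correction). PFKFB3, which makes an activator of phosphofructokinase, rose by 0.63 (0.33 after the correction), and PDP1, a phosphatase that switches pyruvate dehydrogenase on, by 0.41 (0.65 after the correction). GAPDH stood at 728, 816 and 1199 FPKM in DMSO and 1280.5, 1581 and 1527 in 2DG (log2 fold change 0.71, adjusted p = 0.013 by limma, 0.37 after the correction). All 2DG libraries were higher, but DMSO replicate C, the library with the outlying GC slope, lay close to the lowest of them. LDHA, lactate dehydrogenase A, had log2 fold changes of -0.18 and, after the correction, 0.060, which passed in opposite directions. Among 10 genes of the pentose phosphate pathway 3 rose, 0 fell and 7 did not pass the test (8 and 1 rose and fell after the correction).

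In the pathway that 2DG enters as a false mannose, more genes fell than rose before the correction and equal numbers after it. Of 37 genes of N-glycan precursor synthesis and transfer 8 rose, 16 fell and 13 did not pass the test (6 and 6 rose and fell after the correction), with a median of -0.11 (0.015 after the correction). Before the correction the shares that rose and fell were 21.6% and 43.2%, against 24.7% and 30.3% of all genes tested. The glycosyltransferases ALG11, ALG10B and ALG6 fell, with log2 fold changes of -0.64, -0.58 and -0.55 (-0.44, -0.40 and -0.29 after the correction). DPAGT1, the first enzyme of the precursor, was at 9.57, 10.4 and 10.5 FPKM in DMSO and 9.51, 9.76 and 9.57 in 2DG, with groups that overlapped and a log2 fold change of -0.077 (adjusted p = 0.15, limma, -0.085 after the correction). GFPT1, the first enzyme of hexosamine synthesis, did not pass (adjusted p = 0.96 by limma), but had a log2 fold change of 0.22 after the correction (adjusted p = 2.7e-05). Among 23 genes of sugar nucleotide and hexosamine synthesis 8 rose, 6 fell and 9 did not pass the test (12 and 4 rose and fell after the correction). MGEA5 (OGA), the enzyme that removes the sugar tag O-GlcNAc from proteins, fell from 24.4, 24.4 and 21.4 to 16.5, 14.5 and 15.7 FPKM (log2 fold change -0.58, adjusted p = 1.6e-04 by limma, -0.42 after the correction). FPGT, which activates salvaged fucose, had a log2 fold change of -0.58 (-0.35 after the correction).

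PPP1R10 (chr6:30600400-30618612, minus strand) fell most of all genes called lower. Its product PNUTS brings protein phosphatase 1 to RNA polymerase II and takes part in slowing the polymerase at the end of genes. The level was 13.9, 14.1 and 15.3 FPKM in DMSO and 3.05, 2.98 and 3.19 in 2DG. These values rest on 1497, 1441 and 1599 fragments in DMSO and 311, 307 and 341 in 2DG. The groups lay 4.702-fold apart, with a log2 fold change of -2.20 (SE 0.055, adjusted p = 1.4e-12 by limma, -2.40 after the correction). PCF11, a cleavage and termination factor at the polymerase tail, fell from 10.7, 10.6 and 9.62 to 4.04, 3.57 and 3.81 FPKM, a log2 fold change of -1.41 (SE 0.071, adjusted p = 3.9e-09 by limma, -1.22 after the correction). RBBP6, a subunit of the 3′ processing machinery, fell from 19.2, 17.5 and 16.5 to 9.496, 8.67 and 8.74 FPKM (log2 fold change -0.97, adjusted p = 1.5e-07 by limma, -0.83 after the correction), and CSTF3, a scaffold of the cleavage stimulation factor, from 20.4, 19.1 and 17.1 to 10.7, 10.2 and 10.02 (log2 fold change -0.86, adjusted p = 2.0e-06 by limma, -0.61 after the correction). WDR33, which reads the polyadenylation signal, had a log2 fold change of -0.31 (adjusted p = 1.4e-04, limma, -0.33 after the correction).

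Other genes of that machinery moved in both directions. Of 33 genes of the PNUTS complex, cleavage, polyadenylation and termination 5 rose, 18 fell and 10 did not pass the test (10 and 9 rose and fell after the correction), and the median was -0.15 (0.027 after the correction). CPSF1, the largest subunit of the cleavage and polyadenylation factor, had a log2 fold change of 1.67 (0.91 after the correction), and SYMPK, a scaffold of the complex, one of 0.91 (0.27 after the correction). Both were picked after their values were seen. The endonuclease gene CPSF3 had a log2 fold change of -0.26 (adjusted p = 4.2e-04, limma, -0.035 after the correction), where it did not pass (adjusted p = 0.39). Among 27 genes of elongation and pause release 9 rose, 7 fell and 11 did not pass the test (6 and 2 rose and fell after the correction). Of 22 SR splicing factors and CLK kinases, 6 rose, 7 fell and 9 did not pass the test (11 and 4 rose and fell after the correction). CLK1, a kinase of splicing factors, fell from 7.603, 7.94 and 7.24 to 4.87, 3.65 and 3.82 FPKM (log2 fold change -0.88, adjusted p = 1.1e-05 by limma, -0.61 after the correction), and the splicing factor gene SRSF8 fell by 0.49 on the log2 scale (-0.35 after the correction).

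Few antisense RNAs and other long noncoding RNAs (lncRNAs) rose, and genes of 1 exon rose less often than genes of many. Of 130 antisense RNAs tested 2 rose, 53 fell and 75 did not pass the test (1 and 58 rose and fell after the correction), with a median of -0.30 (-0.32 after the correction) against -0.045 and 0.0088 over all genes. In 103 pairs an antisense RNA and the gene it is named for were both tested. The antisense RNA had the lower log2 fold change in 86 of them, and in 83 after the correction, with medians of -0.33 for the antisense RNAs and -0.049 for the partners. Of the 43 antisense RNAs of these pairs that fell, the partner rose in 7, fell in 18 and did not pass in 18. TMPO-AS1 went from 4.501, 4.09 and 3.68 FPKM to 1.78, 2.04 and 1.55 (log2 fold change -1.15, adjusted p = 7.1e-07 by limma, -1.09 after the correction), and RBM26-AS1 from 1.27, 1.16 and 0.9299 to 0.519, 0.365 and 0.403 (log2 fold change -1.21, adjusted p = 1.4e-05 by limma, -0.96 after the correction). OTUD6B-AS1 and NCK1-AS1 fell, with log2 fold changes of -0.97 and -0.81 (-0.72 and -0.55 after the correction). Libraries and mapping were strand-specific by the methods of the study, which bears on how far reads of a pair can be told apart.

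Over all lncRNAs, 724 in number, 33 rose (4.56%) and 179 fell (24.7%), and after the correction 39 rose (5.39%) and 175 fell (24.2%). For the 10906 protein-coding genes the shares were 26.6% and 31.2%, and 25.5% and 19.5% after the correction. The median log2 fold change was -0.20 for genes of 1 exon and -0.030 for genes of 11 or more exons, or -0.17 and 0.022 after the correction. By the corrected values 7.86% of the 649 genes with 1 exon rose and 24.96% fell, against 26.8% and 17.1% of the 4678 genes with 11 or more. Among the 20 genes called lower the median was 2.5 exons, and 14 had no more than 3, whereas 12 of the 32 called higher and 17.6% of all genes tested had no more than 3. KDM4D, a histone demethylase, went from 1.14, 0.808 and 1.12 to 0.447, 0.255 and 0.327 FPKM (log2 fold change -1.35, adjusted p = 8.2e-05 by limma, -1.25 after the correction). ZNF594, a zinc finger gene, went from 1.61, 1.76 and 1.396 to 0.616, 0.372 and 0.5503 (log2 fold change -1.48, adjusted p = 2.3e-05 by limma, -1.28 after the correction), and ZBED8 from 4.24, 4.66 and 3.49 to 1.61, 1.403 and 1.22 (log2 fold change -1.48, adjusted p = 2.8e-06 by limma, -1.22 after the correction). LINC00909 fell by 1.19 on the log2 scale (-0.99 after the correction), and RPL21P16, a pseudogene whose reads can be shared with RPL21, fell to 8, 5 and 6 fragments from 20, 19 and 20. Exon numbers are those of 1 canonical transcript a gene in GENCODE 44.

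**Figure D2:**
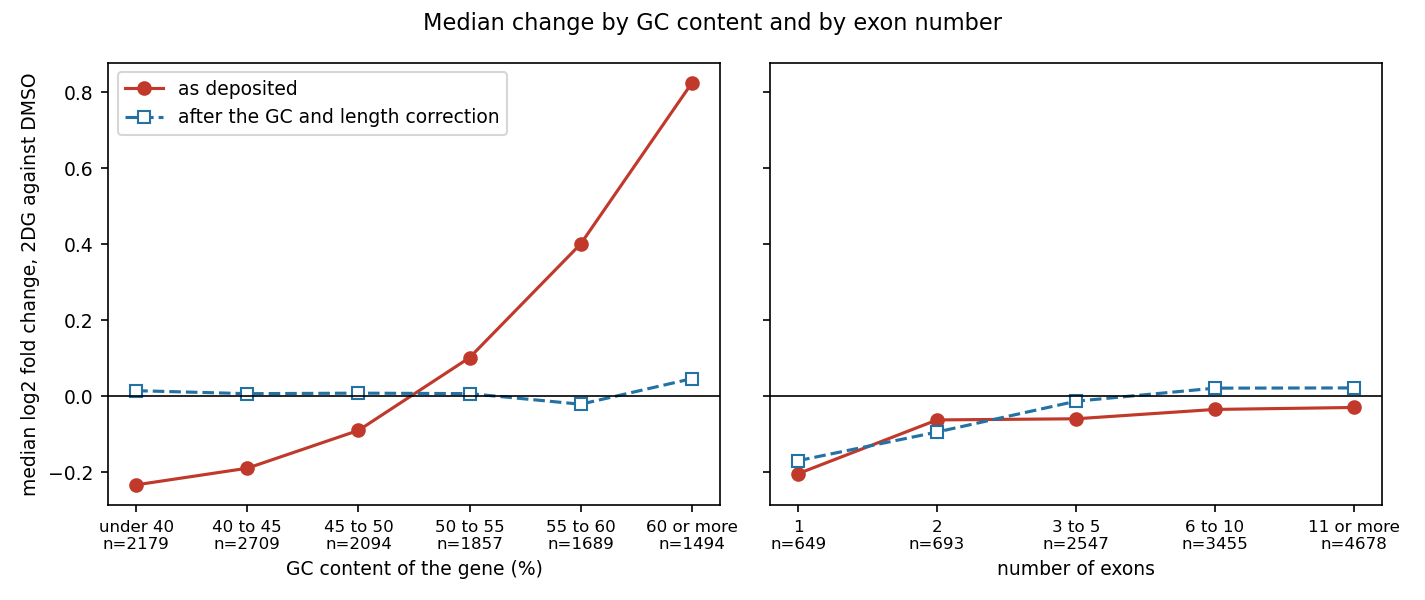
Median log2 fold change of 2DG against DMSO (vertical axis) by GC content and by exon number (horizontal axes, with the number of genes), as deposited (filled circles) and after the GC and length correction (open squares). The rise with GC content, from -0.23 to 0.82, is flat after the correction, while genes of 1 exon stay lowest, at -0.17.

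More early response genes rose than fell. Of 17 immediate early genes 12 rose, 2 fell and 3 did not pass the test (8 and 5 rose and fell after the correction), with a median of 0.72 (0.32 after the correction). KLF6 stood at 10.3, 9.91 and 10.4 FPKM in DMSO and 20.6, 19.8 and 18.8 in 2DG (log2 fold change 0.95, adjusted p = 1.6e-10 by limma, 1.08 after the correction), and KLF10, which TGF-beta also induces, at 17.5, 18.5 and 17.2 and 39.2, 40.8 and 40.7 (log2 fold change 1.18, adjusted p = 2.1e-09 by limma, 1.37 after the correction). KLF4 was called higher, from 1.01, 1.06 and 0.816 to 2.54, 2.51 and 2.28 FPKM (log2 fold change 1.26, adjusted p = 2.6e-06 by limma, 0.96 after the correction), while MYC, a driver of growth and glycolysis, rose by 0.75 (0.82 after the correction). Among 14 genes of MAP kinase feedback 7 rose, 1 fell and 6 did not pass the test (9 and 0 rose and fell after the correction). SPRY2 and DUSP5, both brakes of ERK signalling, were called higher, with log2 fold changes of 1.22 and 1.08 (1.34 and 0.80 after the correction). DUSP10, a phosphatase of JNK and p38, rose from 33.8, 33.6 and 35.97 to 60.5, 62.7 and 63.3 FPKM (log2 fold change 0.85, adjusted p = 1.6e-09 by limma, 1.01 after the correction).

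Several genes of secreted proteins, and RND3 and STX1A beside them, were called higher. GDF15, a stress cytokine that acts on appetite, rose from 0.303, 0.392 and 0.6201 FPKM to 2.33, 2.96 and 2.83, with a log2 fold change of 2.42 (SE 0.24, adjusted p = 5.1e-06 by limma, 1.63 after the correction). LIF, a cytokine of the interleukin 6 family, rose from 3.66, 3.96 and 5.43 to 10.97, 13.2 and 12.4 FPKM (log2 fold change 1.48, adjusted p = 8.8e-05 by limma, 1.08 after the correction), and VEGFA, the growth factor of blood vessels, by 1.14 on the log2 scale (1.11 after the correction). RND3, a small GTPase that opposes contractility, rose from 20.8, 20.2 and 18.1 to 58.3, 57.8 and 57.8 FPKM, by 1.55 (SE 0.071, adjusted p = 1.6e-09 by limma, 1.83 after the correction). STX1A, a syntaxin of vesicle fusion, rose from 0.276, 0.2495 and 0.30999 to 1.05, 1.39 and 1.48 (log2 fold change 1.88, adjusted p = 7.2e-05 by limma, 1.29 after the correction).

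Against these, PI15, a secreted protein of the CAP family, fell from 21.5, 24.1 and 17.8 FPKM to 8.33, 6.71 and 7.08 (log2 fold change -1.50, adjusted p = 5.1e-06 by limma, -1.29 after the correction). CYR61 (CCN1), a matricellular protein, fell from 48.8, 46.7 and 52.8 to 25.1, 24.4 and 27.1 (log2 fold change -0.95, adjusted p = 7.4e-08 by limma, -0.92 after the correction), and BAMBI, a decoy receptor for TGF-beta, from 25.8, 28.7 and 26.3 to 16.6, 15.9 and 15.7 (log2 fold change -0.74, adjusted p = 1.6e-06 by limma, -0.75 after the correction). In each of these the groups did not overlap. IFIT2, an interferon-induced gene, fell by 1.19 on the log2 scale (-0.97 after the correction). Of 17 secreted stress cytokines and growth factors 6 rose, 3 fell and 8 did not pass the test (6 and 3 rose and fell after the correction). Of 18 genes of growth arrest and p53 targets, 6 rose, 5 fell and 7 did not pass the test (8 and 4 rose and fell after the correction). Among them GADD45A, which stress induces with and without p53, was called higher, from 11.04, 9.97 and 9.72 to 25.9, 25.2 and 26.97 FPKM (log2 fold change 1.34, adjusted p = 2.9e-09 by limma, 1.34 after the correction), and the kinase gene PLK2 fell from 95.6, 90.7 and 83.8 to 53.3, 50.1 and 51.3 (log2 fold change -0.80, adjusted p = 3.3e-07 by limma, -0.65 after the correction). Of the BCL2 family, PMAIP1 (NOXA), which promotes cell death, rose from 10.2, 10.3 and 10.1 to 20.2, 18.6 and 19.7 FPKM (log2 fold change 0.93, adjusted p = 4.6e-06 by limma, 1.203 after the correction), and MCL1, which NOXA binds, fell by 0.29 on the log2 scale (-0.15 after the correction).

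**Figure D3:**
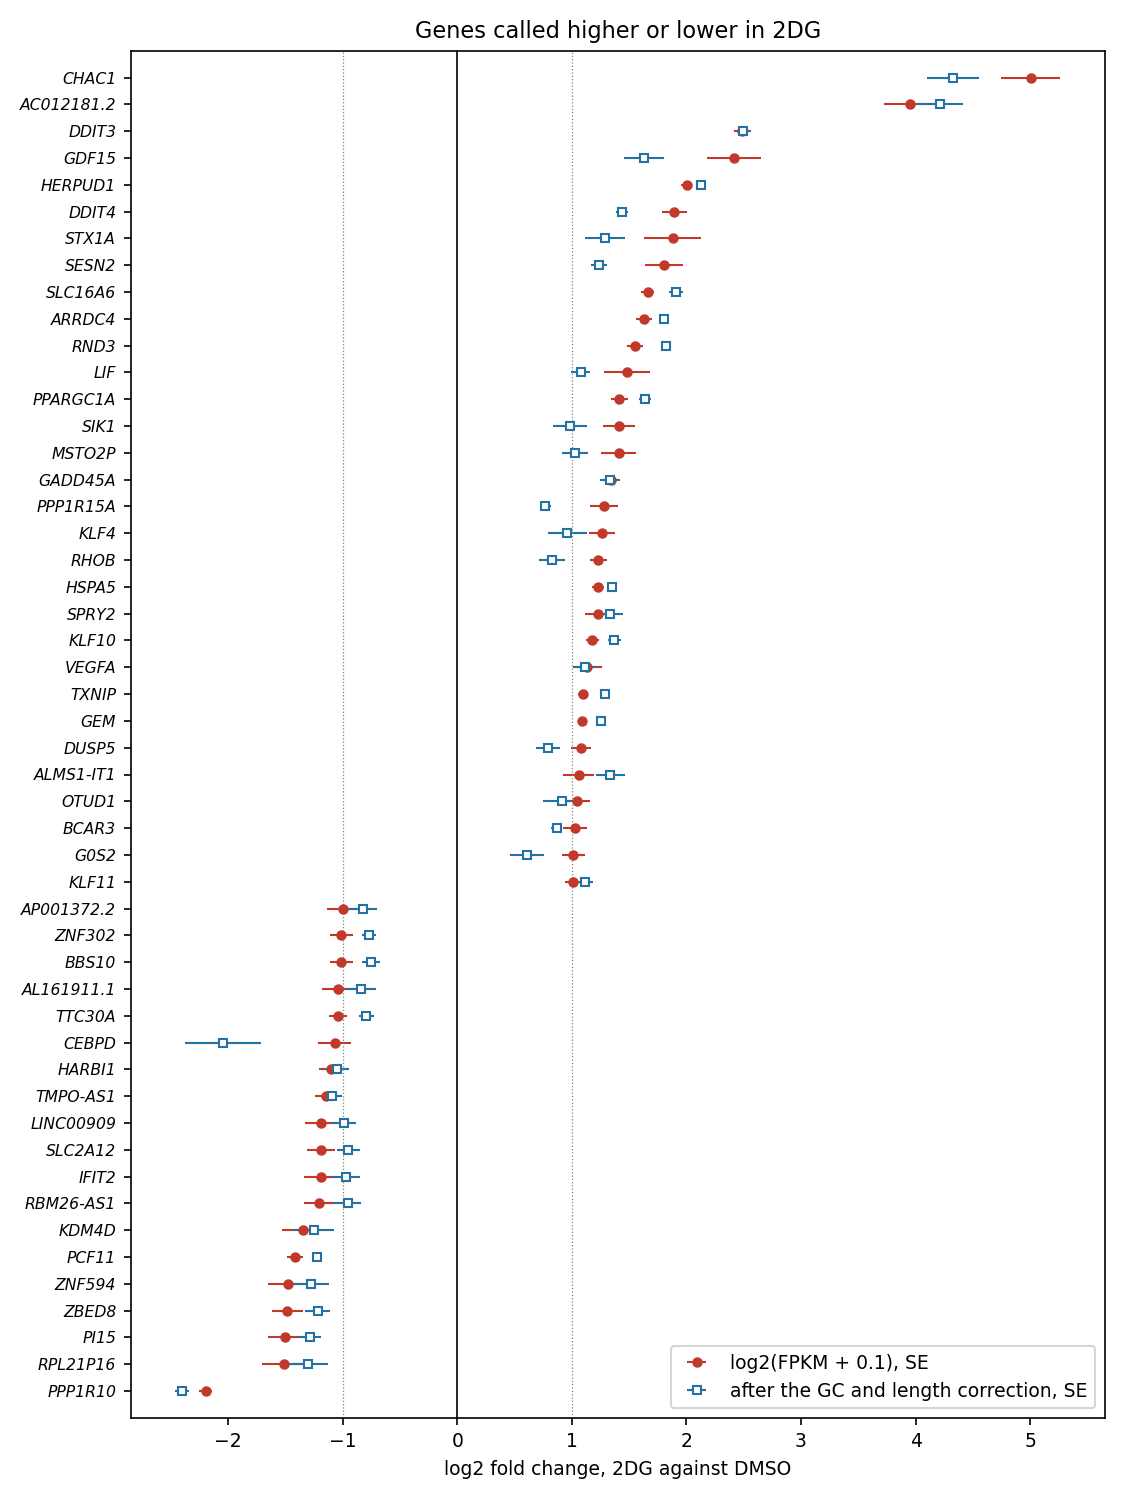
Log2 fold change of 2DG against DMSO (horizontal axis) for 50 of the 52 genes called higher or lower, with standard errors, on log2(FPKM + 0.1) (filled circles) and after the GC and length correction (open squares). Dotted lines mark a 2-fold change. No gene changes direction, CHAC1 leads at 5.01 and PPP1R10 is lowest at -2.20.

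Redox genes fell more often than they rose. Of 19 targets of NRF2 and members of the thioredoxin system 6 rose, 13 fell and 0 did not pass the test (6 and 9 rose and fell after the correction), with a median of -0.23 (-0.073 after the correction). NFE2L2, which encodes NRF2, went from 110.1, 110.2 and 95.5 FPKM to 82.05, 75.8 and 75.5 (log2 fold change -0.43, adjusted p = 1.8e-04 by limma, -0.20 after the correction), and TXNRD1, the cytosolic thioredoxin reductase, from 271, 270.2 and 253 to 213, 205 and 207 (log2 fold change -0.34, adjusted p = 1.1e-05 by limma, -0.17 after the correction). AKR1B10, an aldo-keto reductase, fell by 0.45 (-0.35 after the correction), and PRDX1, an abundant peroxidase, fell by 0.34 on the log2 scale (-0.21 after the correction). Of 25 cytosolic heat shock proteins, 6 rose, 11 fell and 8 did not pass the test (8 and 8 rose and fell after the correction). Before the correction the shares that rose and fell were 24% and 44%, against 24.7% and 30.3% of all genes tested. HSPB1, picked after its values were seen, rose by 1.67 on the log2 scale (0.74 after the correction). HSPA1B, nearly identical to HSPA1A and so uncertain as a single gene, fell from 14.9, 13.6 and 18.6 FPKM to 7.85, 9.55 and 9.09 (log2 fold change -0.82, adjusted p = 0.002 by limma, -1.31 after the correction), and HSPA1L, which neighbours both, from 0.821, 0.845 and 0.567 to 0.0804, 0.259 and 0.211 (log2 fold change -1.62, adjusted p = 5.1e-04 by limma, -1.60 after the correction).

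More genes of the ribosome and of translation rose than fell. Of 84 cytosolic ribosomal proteins 44 rose, 10 fell and 30 did not pass the test (67 and 2 rose and fell after the correction), with a median of 0.17 (0.22 after the correction). Of 36 translation factors 14 rose, 6 fell and 16 did not pass the test (20 and 3 rose and fell after the correction). EIF4B had 9099, 8483 and 8567 fragments in DMSO and 10358, 10233 and 10544 in 2DG. For EIF1 the fragments were 9660, 9174 and 8831 in DMSO and 10677, 10307 and 10807 in 2DG. EIF5, which reads the start codon with eIF2, fell from 46.3, 44.01 and 42.4 to 31.9, 30.9 and 32.04 FPKM (log2 fold change -0.48, adjusted p = 4.5e-05 by limma, -0.25 after the correction), and EIF4EBP2, a repressor of cap-dependent translation, fell by 0.55 on the log2 scale (-0.42 after the correction). Among 30 genes of lipid synthesis 12 rose, 10 fell and 8 did not pass the test (8 and 6 rose and fell after the correction), and INSIG1, an ER brake on that pathway, rose from 123, 125 and 118 to 189, 189 and 186 FPKM (log2 fold change 0.62, adjusted p = 2.4e-07 by limma, 0.79 after the correction). Among 32 genes of replication and mitosis 10 rose, 15 fell and 7 did not pass the test (11 and 8 rose and fell after the correction), and CCNA2, cyclin A, fell by 0.44 (-0.20 after the correction). The mitochondrial genome held 4.81 to 5.71% of the mapped fragments in DMSO and 4.40 to 4.66% in 2DG. Of 15 of its genes, 0 rose, 8 fell and 7 did not pass the test (1 and 3 rose and fell after the correction). MT-ND6, the only protein gene on the light strand, fell from 674, 610.3 and 555 to 332, 376 and 365 FPKM (log2 fold change -0.78, adjusted p = 4.0e-05 by limma, -0.56 after the correction). Of 36 nuclear subunits of complex I 9 rose (25%), 11 fell (30.6%) and 16 did not pass the test (12 and 7 rose and fell after the correction). These shares are near the 24.7% and 30.3% of all genes tested. Of 37 proteasome subunits 6 rose, 17 fell and 14 did not pass the test (8 and 4 rose and fell after the correction). Among 18 genes of the hypoxia response 6 rose, 7 fell and 5 did not pass the test (7 and 4 rose and fell after the correction). BHLHE40, a circadian repressor that many stresses induce, rose from 12.6, 13.6 and 15.03 to 24.7, 26.8 and 26.6 FPKM (log2 fold change 0.92, adjusted p = 2.0e-06 by limma, 0.96 after the correction), and its relative BHLHE41 fell by 0.52 on the log2 scale (-0.46 after the correction).

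The zinc finger genes fell more often than they rose before the correction, and by less after it. Of 385 tested, 74 rose (19.2%), 146 fell (37.9%) and 165 did not pass the test (88 and 98 rose and fell after the correction). All genes tested also fell more often before the correction, with 24.7% that rose and 30.3% that fell. After it their shares were 23.8% and 19.7%. ZNF302, which was called lower, went from 6.55, 5.697 and 5.44 FPKM to 3.27, 2.65 and 2.702 (log2 fold change -1.01, adjusted p = 6.1e-06 by limma, -0.77 after the correction). Of 10 genes of polyamine metabolism, 6 rose, 3 fell and 1 did not pass the test (5 and 2 rose and fell after the correction). SAT1, which acetylates polyamines, had a log2 fold change of 0.68 (0.85 after the correction), and AMD1, which makes their propylamine donor, one of -0.44 (-0.18 after the correction). Of 21 genes of TGF-beta and BMP signalling, 9 rose, 4 fell and 8 did not pass the test (7 and 5 rose and fell after the correction). In the BCL2 family, with 13 tested, 6 rose, 2 fell and 5 did not pass the test (7 and 3 rose and fell after the correction). Of 75 mitochondrial ribosomal proteins 20 rose (26.7%), 26 fell (34.7%) and 29 did not pass the test (19 and 8 rose and fell after the correction), near the shares of all genes before the correction. Of 10 snoRNA host genes 4 rose, 0 fell and 6 did not pass the test (4 and 0 rose and fell after the correction). Among 15 housekeeping genes 7 rose, 3 fell and 5 did not pass the test (8 and 1 rose and fell after the correction). Of 9 genes of glioma and mesenchymal identity, 6 rose, 2 fell and 1 did not pass the test (5 and 1 rose and fell after the correction), and the transcription factor gene SNAI2 rose from 24.8, 23.3 and 22.7 to 42.4, 42.2 and 41.7 FPKM (log2 fold change 0.84, adjusted p = 2.0e-08 by limma, 1.08 after the correction). Of 8 nuclear and paraspeckle RNAs and their binding proteins 3 rose, 2 fell and 3 did not pass the test (2 and 1 rose and fell after the correction), and of 8 genes of RGS and G-protein signalling 4 rose, 1 fell and 3 did not pass the test (1 and 0 rose and fell after the correction).

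**Figure D4:**
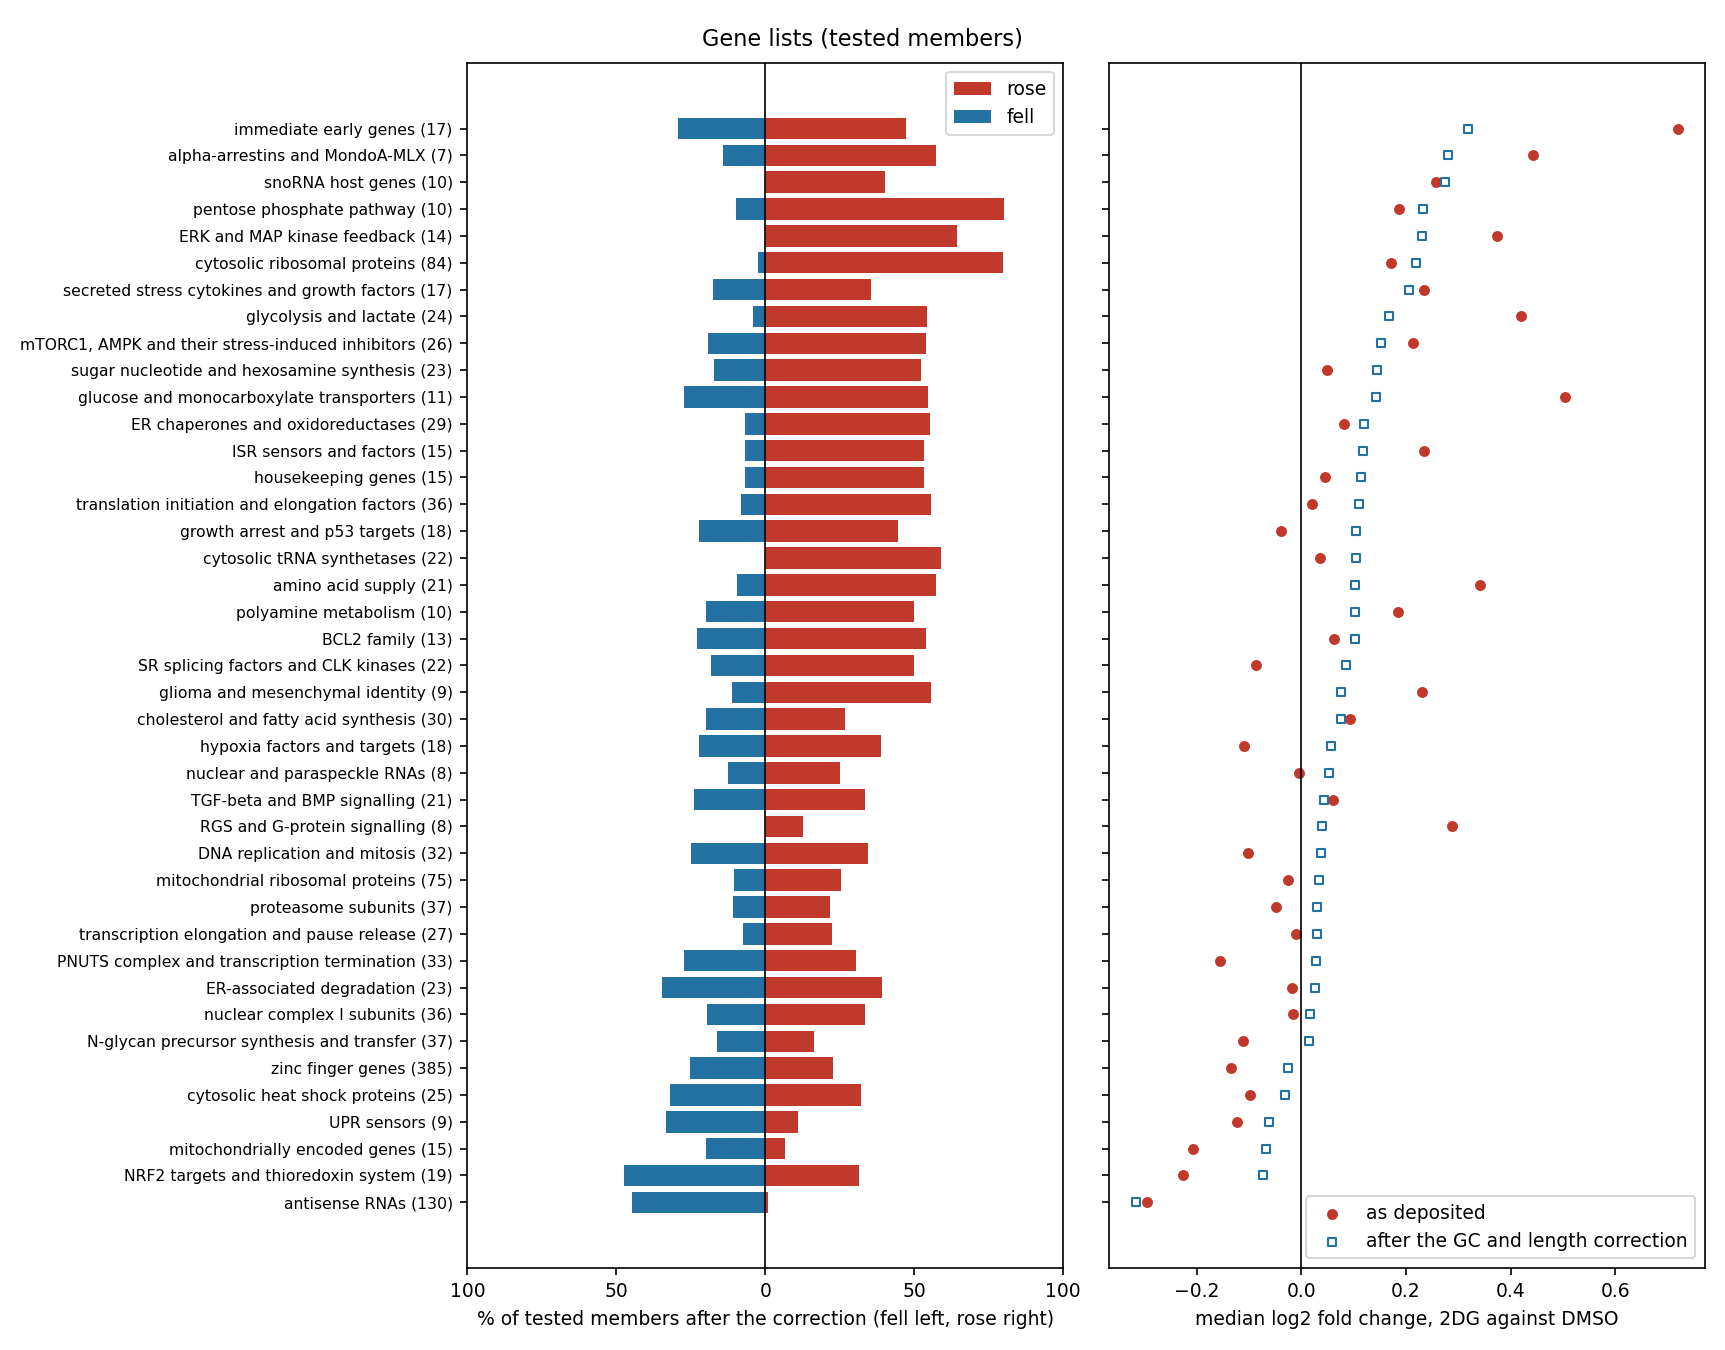
Share of the tested members (number in brackets) of each list that rose (right) or fell (left) after the GC and length correction, and beside it the median log2 fold change as deposited (filled circles) and after the correction (open squares). Lists lie in the order of the corrected median. The 84 ribosomal protein genes and 10 pentose phosphate genes have the largest shares that rose, and the 130 antisense RNAs have the lowest median both ways.

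Further genes that were called are given here because they were called, outside the rule for named genes. Of those higher, 20 lay beyond the 12 with the largest rise, at log2 fold changes of 1.01 to 1.41. Among them PPARGC1A, the coactivator PGC-1 alpha of mitochondrial biogenesis, went from 1.71, 1.78 and 1.65 FPKM to 4.95, 4.605 and 4.66 (log2 fold change 1.41, adjusted p = 7.4e-09 by limma, 1.64 after the correction). RHOB, a GTPase of endosomes, rose by 1.23 (0.82 after the correction), and GEM, a GTPase that restrains calcium channels, by 1.09 (1.26 after the correction). Others, with the value after the correction in brackets, were KLF11, a KLF10 relative, at 1.01 (1.12), the deubiquitinase OTUD1 at 1.04 (0.91), the adaptor BCAR3 at 1.02 (0.87), the lipase inhibitor G0S2 at 1.01 (0.61), the pseudogene MSTO2P at 1.41 (1.03) and ALMS1-IT1, a transcript in an intron of ALMS1, at 1.06 (1.33). Beyond the 12 with the largest fall, 8 genes lay at -1.10 to -1.001. CEBPD, a transcription factor of inflammation with 1 exon, went from 2.88, 2.19 and 2.47 to 0.845, 1.37 and 1.25 FPKM (log2 fold change -1.07, adjusted p = 7.7e-05 by limma, -2.05 after the correction). Others were HARBI1, derived from a transposase, the cilium genes TTC30A and BBS10, ZNF302, AL161911.1 and AP001372.2.

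GH also lowers glycolysis, and 2DG was compared with it directly. This comparison and that with DMSO share the 2DG libraries. The GC and length correction was not applied to it, and the slopes on GC content were -0.17, -0.11 and 0.044 in GH. The part of that trend in the differences from GH was not tested. Of all genes tested 39.2% differed, 1763 higher and 2985 lower with 2DG than with GH. HERPUD1 was at 38.3, 37.6 and 35.9 FPKM in GH, with a log2 difference of 2DG minus GH of 0.13 (adjusted p = 0.055, limma), which did not pass, and the ranges of the 2 treatments lay next to each other. HSPA5 was at 364, 362 and 342 in GH, slightly below 2DG (difference 0.20, adjusted p = 0.0092 by limma). For DNAJB9 the difference was -0.49 (adjusted p = 0.0037, limma), lower with 2DG, and for XBP1 it was 0.13 (adjusted p = 0.012, limma). DDIT3 and CHAC1, targets of the integrated stress response and among the largest rises with 2DG, differed by more. DDIT3 was at 42.5, 44.996 and 43.9 FPKM in GH (difference 1.18, adjusted p = 6.5e-08 by limma) and CHAC1 at 0.712, 0.829 and 0.864 (difference 2.73, adjusted p = 5.6e-06 by limma). PPP1R15A, of the same response, had a difference of 0.67 (adjusted p = 0.0012, limma).

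The treatments parted in the arrestins and in PPP1R10. TXNIP stood at 1.21, 1.17 and 1.29 FPKM in GH against 235, 225 and 229 in 2DG, a difference of 7.44 (adjusted p = 3.4e-21, limma) on the log2 scale, and DMSO lay between them. ARRDC4 was at 1.56, 1.66 and 1.58 in GH, with a difference of 4.08 (adjusted p = 3.2e-15, limma). PPP1R10 went the other way, at 29.2, 28.3 and 31.1 FPKM in GH and 3.05, 2.98 and 3.19 in 2DG (difference -3.22, adjusted p = 3.6e-15 by limma), with DMSO again between them. PCF11, at 8.53, 8.56 and 8.23 in GH, had a difference of -1.13 (adjusted p = 9.1e-08, limma). IFIT2 stood at 1.32, 1.32 and 1.06 FPKM in DMSO, 0.549, 0.433 and 0.463 in 2DG and 0.463, 0.5798 and 0.586 in GH, and its difference of -0.14 (adjusted p = 0.41, limma) did not pass.

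The effect of 2DG was also measured on top of phenformin, as 2DG plus phenformin against phenformin. Over all genes tested, the effect with phenformin differed from that without it in 4.97%. The GC and length correction was not applied here either. The slopes on GC content were -0.36, -0.27 and -0.21 in phenformin and 0.21, 0.083 and 0.31 in the combination. CHAC1 rose by 5.01 on the log2 scale without phenformin, while its log2 fold change with phenformin was 0.83, at 0.185, 0.115 and 0.157 FPKM in 2DG plus phenformin, a difference between the effects of -4.17 (adjusted p = 8.9e-06, limma). Levels that low lie near the 0.1 added before the log, on which the 0.83 and the difference depend in part. HERPUD1, at 9.95, 9.32 and 9.51 FPKM in the combination, had a log2 fold change of 0.091 with phenformin (difference -1.91, adjusted p = 6.0e-10 by limma). Its libraries in the combination overlapped those of DMSO. With phenformin the log2 fold change was -0.043 for SESN2 (difference -1.85, adjusted p = 3.3e-04 by limma), 1.36 for DDIT3 (difference -1.13, adjusted p = 1.0e-05 by limma) and 0.15 for HSPA5 (difference -1.08, adjusted p = 4.0e-07 by limma).

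GDF15 had the opposite difference. Its log2 fold change was 4.07 with phenformin against 2.42 without (difference 1.65, adjusted p = 0.0089 by limma), with 7.51, 6.0001 and 7.38 FPKM in the combination. For TXNIP the effect was 2.33 with phenformin against 1.10 without (difference 1.24, adjusted p = 2.7e-08 by limma). Phenformin alone stood at 41.6, 42.2 and 41.5 FPKM for this gene and the combination at 216, 216 and 199.7. SLC16A6 and ARRDC4 also had larger effects with phenformin, by 0.71 (adjusted p = 1.3e-04, limma) and 0.40 (adjusted p = 0.023, limma). PPP1R10 stayed low in the combination, at 4.25, 3.702 and 3.84 FPKM, with a smaller fall than without phenformin by 0.52 (adjusted p = 9.6e-04, limma). For PCF11 the difference was -0.21 (adjusted p = 0.31, limma).

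**Figure D5:**
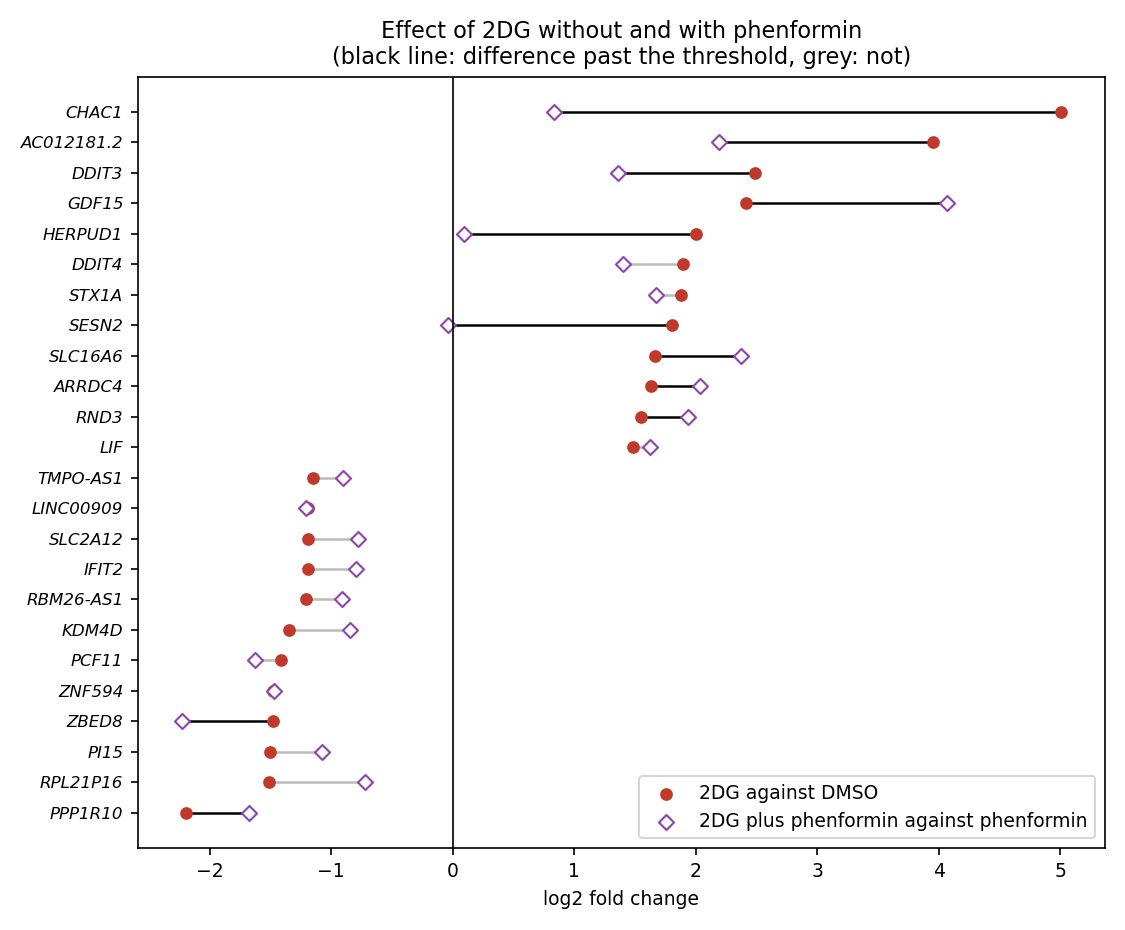
Log2 fold change (horizontal axis) of 2DG against DMSO (filled circles) and of 2DG plus phenformin against phenformin (open diamonds) for the 24 genes with the largest rises and falls, joined by a black line where the 2 effects differed past the threshold and a grey line where they did not. Of the 24, 11 have a black line, with CHAC1 the longest at a difference of -4.17.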

How the data were processed

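Polyadenylated RNA of T98G cells was sequenced from stranded, paired-end libraries. The authors mapped reads in the CLC Genomics Workbench 11 with a strand-specific protocol to GRCh38 with Ensembl release 89, and the deposited values are FPKM per gene. Since FPKM moves in steps of 1 fragment, whole fragments were recovered, within 0.001, for 99.865% of the genes above 0 in any library. The same steps gave the depths. Each contrast was taken from 1 limma fit (3.58.1, R 4.3.3) of all 18 libraries in 6 groups, with a trend, on log2(FPKM + 0.1) of genes at 0.5 FPKM in at least 3 libraries. The thresholds of the called genes follow the methods of the study. The correction removed each library's spline trend (5 degrees of freedom) on GC content and log length, with both taken from GENCODE 44 and GC content found for 99.29% of the genes tested.

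Named genes were 4 markers, the 12 called higher and 12 called lower with the largest changes and libraries that did not overlap, up to 6 members of each gene list with the smallest adjusted p, and 10 genes named whatever their values. Genes beyond these are named as such. VIM, CD44, FN1, NES, CHI3L1, GFAP, OLIG2, SOX2 and KRT18 come from marker lists. The members and lists were chosen with earlier results of these data known. The alternatives covered the pseudocount, the filter on low values, scaling, the correction, a block on the replicate letter, the libraries in the model, leaving out each library and the call threshold. The code was tested on simulated data. Intervals of counts cover counting error only. Results for a few genes are not reported here.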

Additional observations from a re-analysis of the deposited data

Results flagged for a closer look

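The effect of 2DG differed with phenformin in 11 of the 24 genes with the largest rises and falls, by the interaction term of the model, against 4.97% of all genes tested. The 24 were picked by the effect without phenformin, which enters this difference with the opposite sign, so their share is not to be read against that of all genes. On the log2 scale, the effect with phenformin minus that without was -4.17 for CHAC1, -1.91 for HERPUD1, -1.85 for SESN2, -1.76 for AC012181.2, -1.13 for DDIT3 and -0.75 for ZBED8. It was 1.65 for GDF15, 0.71 for SLC16A6, 0.52 for PPP1R10, 0.40 for ARRDC4 and 0.39 for RND3. On top of phenformin, ZBED8 fell further and PPP1R10 fell less than without it. AC012181.2 and HERPUD1 can share fragments. The GC and length correction was not applied to these differences, and what causes them was not tested.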

How the results depend on the processing

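The main counts were 2992 genes that rose, 3670 that fell, 32 called higher and 20 called lower. With 1 library left out at a time, 1232 to 3547 rose, 2512 to 4000 fell, 27 to 34 were called higher and 12 to 31 lower. A pseudocount of 1 gave 20 called higher and 4 lower, and only the 6 libraries compared gave 19 and 2. Median-of-ratios scaling gave 13 called lower, quantile normalization 31, and the GC and length correction 2384 that fell. Of the main calls this correction kept 24 higher and 9 lower. Without both outlying libraries, 142 were called higher. A fold of 2 with a Benjamini-Hochberg threshold gave 536 called higher and 40 lower. The labels do not say whether libraries of the same letter belong together. The same-letter correlations of the deviations were 0.41 for A, -0.15 for B and 0.25 for C. Those of unlike letters ran from -0.50 to 0.30. With 3 libraries a group these values cannot decide it. The replicate block gave 51 called higher and 17 lower, and with the correction 36 and 21. Alternatives chosen after seeing the data were the block on only 6 libraries (15 and 2), the correction without DMSO replicate C (2405 fell), the Benjamini-Hochberg threshold with the correction (64 and 38) and limma voom on recovered fragments (31 and 23). The planned count models on recovered fragments were not run, since the deposited values are FPKM. The causes were not tested.
Over 125 named genes, 2564 of 2624 values kept their direction and side of the threshold and 34 lost only significance. The log2 fold changes that changed sign with the correction, with or without the block, were 0.029 for ATF6, 0.061 for CD44, -0.44 for CEBPB, 0.060 for LDHA, -0.040 for MLXIP and 0.22 for GFPT1. Without DMSO replicate C as well they were 0.032, 0.070, -0.71, 0.065, -0.016 and 0.21, with -0.0017 for TRIB3 and -0.013 for VIM. GFPT1, near 0, also changed sign with median-of-ratios scaling (0.042), quantile normalization (0.0023) and 1 library left out (-0.061 to 0.026). Genes near the 0.5 FPKM filter rest on few fragments, CHAC1 in DMSO among them.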
